A study of Homo sapiens with 6 samples.

Results

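Metallothioneins and zinc transport genes were followed in RNA-seq libraries of 8505C, an established cell line derived from a human anaplastic thyroid carcinoma. The members are 8 genes taken by name from the count table, out of 58735 named genes, namely the metallothioneins MT1E, MT1F, MT1G, MT1M, MT1X and MT2A, the transcription factor MTF1 and the zinc exporter SLC30A1. The study has 3 libraries labelled with a short hairpin RNA against HHEX and genotype HHEX KD, named KD1, KD2 and KD3, and 3 labelled with a control hairpin and genotype wild-type, named control1, control2 and control3. All are labelled untreated, the growth protocol is the same for each, and whether a hairpin line is 1 clone or a pool is not given in the sources used here. Sample titles number the libraries of either group so that 2 of the 3 share their first replicate number, and the columns do not show which. An n of 3 therefore counts libraries. HHEX is a homeobox transcription factor of thyroid development.

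Metallothioneins are small proteins rich in cysteine that bind zinc and copper, and cadmium when cells meet it. Free zinc in the cell is sensed by MTF1, a zinc finger protein that then binds metal response elements in the promoters of metallothionein genes and of SLC30A1, whose product pumps zinc out across the plasma membrane. Metallothionein genes are therefore commonly read as reporters of zinc or cadmium in the cell. HMOX1, which encodes heme oxygenase 1, and HSPA6, an inducible chaperone of the HSP70 family, also respond to cadmium and arsenic, but through the NRF2 and heat shock factor pathways. One library labelled HHEX shRNA, KD3, held far more HMOX1 and HSPA6 than the others, and the question put to the members was whether the metal response genes were high in it too.

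The libraries held 14052770 to 15067566 counts over named genes with the HHEX hairpin label and 13333245 to 15144176 with the control label. Levels are given as CPM, counts scaled to a common library size. HHEX itself had 14.8 (KD1), 7.93 (KD2) and 7.12 CPM (KD3), against 12.6, 12.8 and 12 CPM in control1, control2 and control3. The library labelled KD1 thus went against its label, and each difference between the groups below includes it. By edgeR's quasi-likelihood test HHEX was not called (log2 fold change −0.33, SE 0.28, adjusted p = 0.527). KD1 and KD2 correlated at r = 0.989 across the log2 CPM of 14280 tested genes and at 0.955 and 0.956 with KD3, which correlated with the controls at 0.971 to 0.977. The KRT8 and KRT18 keratins of epithelium were abundant, at 342 CPM or more in the HHEX hairpin libraries and 325 CPM or more in the controls. The other epithelial markers were near 0, with EPCAM at 0.202 to 1.69 CPM against 1.33 to 2.28 CPM and KRT19 at 0.352 CPM or less against 0 in the 3 controls. Of the thyroid genes PAX8, NKX2-1 and FOXE1 were detected, while TG and TSHR reached at most 0.0714 CPM in the HHEX hairpin libraries and 0.299 CPM in the controls. Summed markers of fibroblasts lay at 3.38 to 6.43 CPM against 2.76 to 5.66, of leukocytes at 3.03 to 4.25 against 2.99 to 4.78, and of endothelium at 5.00 to 14.9 against 15 to 16.2.

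The promoters of MT2A, MT1X and SLC30A1 are shown because they hold matches to the core of the metal response element, and that of HSPA6 because its gene stands apart in KD3. Each line gives the 250 bases before the RefSeq transcription start (GRCh38.p14), 5′ to 3′ on the strand of the gene. Capitals mark the metal response element core, TGCACNC or TGCGCNC on either strand, in the first 3, and paired heat shock units, GAANNTTC or TTCNNGAA, in HSPA6.
MT2A, chr16:56608334-56608583, plus strand: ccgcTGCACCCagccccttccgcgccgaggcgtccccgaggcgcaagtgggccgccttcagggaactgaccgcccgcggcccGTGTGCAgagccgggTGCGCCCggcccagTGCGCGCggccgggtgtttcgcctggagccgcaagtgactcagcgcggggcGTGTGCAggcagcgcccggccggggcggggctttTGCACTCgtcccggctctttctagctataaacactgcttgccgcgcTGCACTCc
MT1X, chr16:56682220-56682469, plus strand: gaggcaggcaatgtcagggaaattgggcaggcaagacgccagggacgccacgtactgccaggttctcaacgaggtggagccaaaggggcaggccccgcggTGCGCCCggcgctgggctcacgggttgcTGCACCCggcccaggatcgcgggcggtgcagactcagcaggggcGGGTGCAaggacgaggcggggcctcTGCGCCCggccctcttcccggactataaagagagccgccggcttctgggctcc
SLC30A1, chr1:211579162-211579411, minus strand: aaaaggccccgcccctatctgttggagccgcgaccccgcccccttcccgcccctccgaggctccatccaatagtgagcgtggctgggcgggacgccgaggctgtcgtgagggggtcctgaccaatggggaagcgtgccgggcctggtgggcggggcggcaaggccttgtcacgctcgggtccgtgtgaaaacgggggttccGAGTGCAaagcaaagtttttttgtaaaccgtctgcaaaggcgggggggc
HSPA6, chr1:161524290-161524539, plus strand: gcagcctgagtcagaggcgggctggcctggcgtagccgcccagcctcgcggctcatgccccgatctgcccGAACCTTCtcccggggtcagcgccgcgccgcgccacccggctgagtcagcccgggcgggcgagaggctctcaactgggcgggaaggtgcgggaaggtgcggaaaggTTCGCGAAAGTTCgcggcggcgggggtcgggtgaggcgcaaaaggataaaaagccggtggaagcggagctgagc
In the window from 250 bases before to 50 bases after the start, MT2A held 8 metal response element cores, 7 of them printed above, MT1X held 4 and SLC30A1 held 2, of which 1 is printed. The windows of MTF1 and HSPA6 held 0. Of 35116 RefSeq promoters of this length 29.6% held at least 1 core, 8.6% at least 2, 0.601% at least 4 and 0.0484% at least 7. HSPA6 held 3 paired heat shock units, the last 2 overlapping at −74 to −62, as did 0.194% of promoters at that number or more, and the 4 member windows held 0. A single antioxidant response element core, TGACNNNGC, lay in MT2A, MT1X, SLC30A1 and HSPA6 alike, outside the other matches, and 13.3% of promoters held at least 1. MT1E, MT1F, MT1G and MT1M were not matched to a promoter. A match describes letters and is not evidence of binding.

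**Figure D1:**
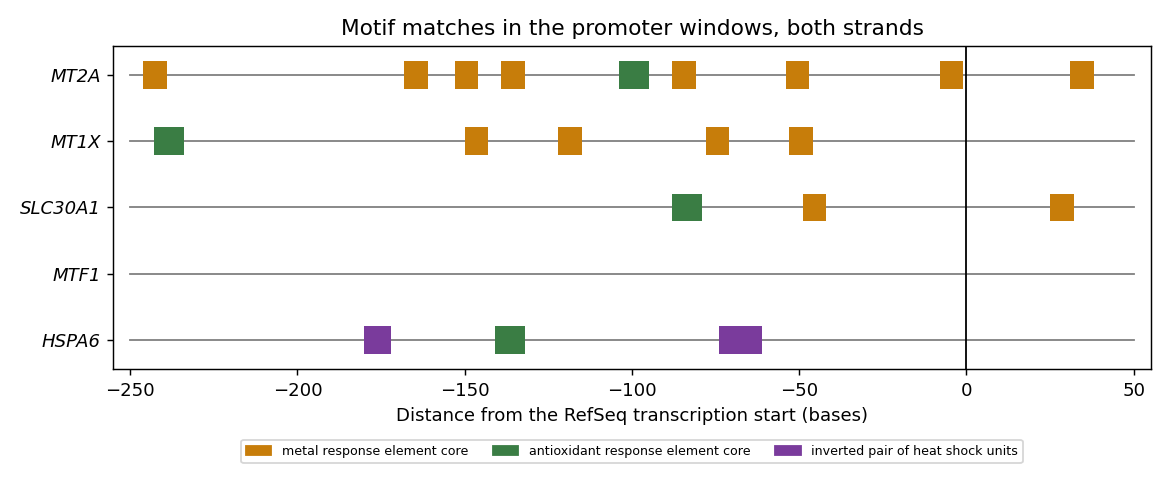
Motif matches in the promoter windows of MT2A, MT1X, SLC30A1, MTF1 and HSPA6, as distance in bases from the RefSeq transcription start. Orange blocks are metal response element cores, green blocks antioxidant response element cores and purple blocks paired heat shock units. MT2A holds 8 orange blocks and HSPA6 holds 0.

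The metallothionein signal of these cells came almost wholly from MT2A (ENSG00000125148, chromosome 16, 56608199 to 56609497, plus strand). It gave 99.7%, 99.5% and 97.9% of all counts of the 6 member metallothioneins in KD1, KD2 and KD3, and 98.3%, 99.0% and 98.1% in control1, control2 and control3. Levels of different genes are compared as CPM per kilobase of exon. On that scale MT2A stood at 297 (KD1), 279 (KD2) and 171 (KD3), and at 161, 224 and 117 in the control libraries. These levels ranked it between 77th and 158th of all named genes in the HHEX hairpin libraries and between 130th and 214th in the controls. Per kilobase SLC30A1 lay between 9.27 and 10.7 CPM in the HHEX hairpin libraries and between 10.5 and 11.2 in the controls, and MTF1 at 7.0 to 8.17 against 5.27 to 7.21. MT1F and MT1X stayed under 2 CPM per kilobase in each library. The order MT2A, SLC30A1, MTF1, MT1F, MT1X held in all 6 libraries.

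MT2A, a metallothionein of many tissues, had 386 (KD1), 363 (KD2) and 222 CPM (KD3), against 209, 291 and 152 CPM in control1, control2 and control3. KD1 and KD2 stood above each control library, while KD3 lay inside their range, so the groups overlapped. Exact Poisson intervals, which cover counting error only, were narrow, at 215 to 230 CPM for KD3. The group means were 324 ± 88.4 CPM with the HHEX hairpin label and 217 ± 70.2 CPM with the control label (SD, n = 3 each). The log2 fold change was 0.57 (SE 0.28, 95% confidence interval −0.06 to 1.20) and MT2A was not called (edgeR adjusted p = 0.276). In percent of the control mean MT2A stood at 177% in KD1, 167% in KD2 and 102% in KD3. Without KD3 the log2 fold change was 0.81 and passed (edgeR adjusted p = 0.0249), but so did 4675 genes in that fit, against 26 with all libraries. Without KD1, the library whose HHEX level went against its label, MT2A had a log2 fold change of 0.43 (edgeR adjusted p = 0.576). Higher MT2A per cell and a larger share of cells with MT2A cannot be told apart in such bulk libraries.

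**Figure D2:**
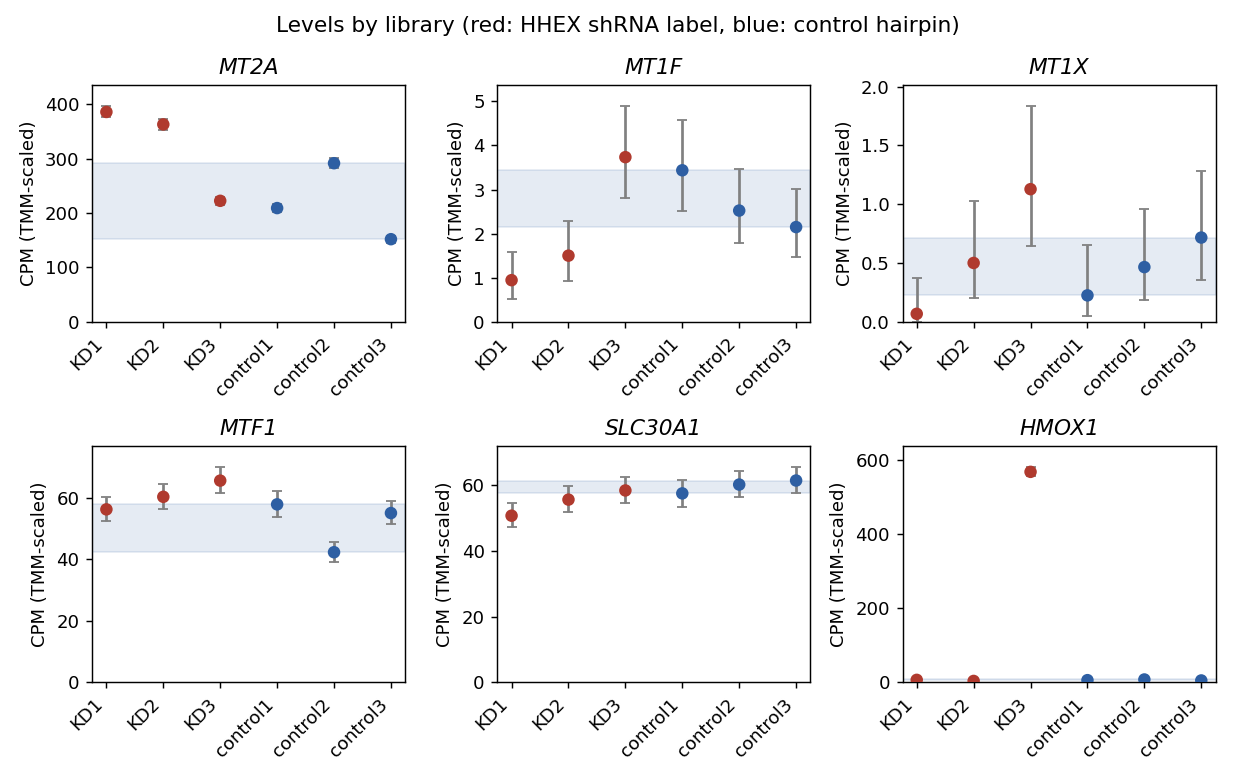
CPM of MT2A, MT1F, MT1X, MTF1, SLC30A1 and HMOX1 in each library, with exact 95% Poisson intervals as bars (counting error only) and the range of the 3 control libraries shaded. For MT2A, KD3 lies at 222 CPM inside the shaded range while its HMOX1 level of 569 CPM stands far above it.

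MT1F (ENSG00000198417, chromosome 16, 56657694 to 56660698), another isoform of the cluster, had 0.943 (KD1), 1.5 (KD2) and 3.74 CPM (KD3), from 14, 21 and 53 counts. In the controls it lay at 3.44, 2.52 and 2.15 CPM, from 46, 38 and 33 counts. It thus stood below each control in KD1 and KD2 and slightly above the highest in KD3, where MT2A showed the opposite order among the libraries labelled HHEX shRNA. The interval of KD3, 2.80 to 4.89 CPM, covers the level of control1. Over the groups the log2 fold change of MT1F was −0.39 (SE 0.50, 95% interval −1.53 to 0.75, edgeR adjusted p = 0.681), which became −1.12 without KD3 (edgeR adjusted p = 0.0576) and −0.04 without KD1.

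MT1X (ENSG00000187193, chromosome 16, 56682424 to 56684196), often induced by zinc and cadmium in human cells, was near the limit of detection. It had 1, 7 and 16 counts in KD1, KD2 and KD3, and 3, 7 and 11 counts in control1, control2 and control3. KD3 was the highest of the 6 libraries at 1.13 CPM, 2.41 times the control mean, with an interval of 0.645 to 1.83 CPM that overlaps that of control3, 0.357 to 1.28 CPM. MT1X did not pass the filter on low counts, and an exact two-sided permutation test of its CPM gave p = 0.8, where 3 against 3 libraries cannot go below 0.1. Of the exonic bases of MT1X 18.1% also belong to AC026461.1, a transcript on the same strand that reads on from it, so its counts are uncertain.

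Summed without MT2A, the member metallothioneins gave 15, 28 and 69 counts in KD1, KD2 and KD3 and 49, 45 and 44 counts in the controls. These are 1.01, 2.0 and 4.86 CPM with the HHEX hairpin label and 3.66, 2.99 and 2.86 CPM with the control label. KD3 was the highest library and KD1 and KD2 the lowest. With MT2A included the sum was 387, 365 and 227 CPM in KD1, KD2 and KD3 against 213, 294 and 155 CPM in the controls, or 1.75, 1.65 and 1.03 times the control mean. The sum in KD3 lay inside the range of the controls.

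MT1E, MT1G and MT1M had 0 counts in all 6 libraries, which allows up to 0.214 CPM in a library labelled HHEX shRNA and up to 0.224 CPM in a control. Of the 19 metallothionein genes and pseudogenes that were matched, 12 were at 0 everywhere, and MT2A, MT1F and MT1X were the 3 that reached 1 CPM in any library. MT1H had 5 counts or fewer and MT1A 2 or fewer in each library. Metallothionein transcripts resemble each other, and reads that fit several genes may have been left out or placed on 1 of them by the counting, which is not described. Of windows of 50 bases in the principal transcript 45.1% in MT1X, 20.2% in MT1G, 7.05% in MT1M, 5.34% in MT1E, 4.88% in MT2A and 3.59% in MT1F occurred also in transcripts of another gene. At 100 bases the share was 19.1% in MT1X and 0% in the other 5. FTH1, an iron storage gene with many processed copies, shared 78.7% of 50-base windows and had 2.43 to 8.17 CPM in the HHEX hairpin libraries and 2.69 to 4.82 CPM in the controls. The part of such sharing in the low counts was not tested.

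MTF1 (ENSG00000188786, chromosome 1, 37809567 to 37859620, minus strand), the zinc sensor, had 56.2 (KD1), 60.3 (KD2) and 65.5 CPM (KD3), against 57.8, 42.3 and 55 CPM in control1, control2 and control3. KD2 and KD3 stood above each control, KD1 did not, and control2 was the lowest library. The log2 fold change was 0.23 (SE 0.15, 95% confidence interval −0.11 to 0.57, edgeR adjusted p = 0.402), and it was 0.35 without control1 and 0.12 without control2.

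SLC30A1 (ENSG00000170385, chromosome 1, 211571568 to 211578742, minus strand), the exporter that MTF1 switches on when zinc is high, had the smallest SD relative to its mean among the tested members. It had 50.7 (KD1), 55.6 (KD2) and 58.4 CPM (KD3), against 57.5, 60.2 and 61.4 CPM in control1, control2 and control3. KD3 lay inside the range of the controls, and KD1 and KD2 below it. Its log2 fold change was −0.12 (SE 0.12, 95% confidence interval −0.39 to 0.15, edgeR adjusted p = 0.577), and −0.06 without KD1.

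Of the 8 members 4 passed the filter on low counts, and 0 of these 4 were called by edgeR over all genes, with 0 at an unadjusted p under 0.05. By limma voom and by DESeq2 0 were called, with 0 and 1 at an unadjusted p under 0.05. Of all 14280 tested genes limma voom called 28 and DESeq2 854, with 3006 and 3020 at an unadjusted p under 0.05. Of all tested genes edgeR called 0.182%, and 20.6% had an unadjusted p under 0.05. In 0 of the 4 did the groups not overlap, where 24.9% of all tested genes had groups that did not. In KD3, MT1F and MTF1 lay above all controls and 0 of the 4 below, where 29.9% of all tested genes lay above and 31.6% below. In KD1 1 lay above and 2 below, where 34.1% and 37% of all tested genes did, and in KD2 2 above and 2 below, where 34.4% and 37.6% did. More than 2-fold above the control mean lay 0 of the 4 in KD1, KD2 or KD3, where 3.98%, 4.24% and 1.86% of tested genes did. More than 2-fold below it lay MT1F in KD1 and 0 in KD2 or KD3, where 9.86%, 9.96% and 4.77% did. With 4 tested members these shares describe few genes.

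HMOX1 and HSPA6, by which KD3 was chosen, give the scale of the difference. HMOX1 had 7.08 (KD1), 4.14 (KD2) and 569 CPM (KD3), against 6.28, 8.10 and 5.47 CPM in control1, control2 and control3. HSPA6 had 5.53 (KD1), 5.07 (KD2) and 222 CPM (KD3), against 1.94, 4.51 and 2.15 CPM in control1, control2 and control3. All 3 libraries labelled HHEX shRNA thus lay above the controls, where 24.9% of all tested genes had groups that did not overlap. The Poisson intervals of KD1, 4.39 to 6.86 CPM, and KD2, 3.96 to 6.40 CPM, overlap that of control2, 3.51 to 5.72 CPM. HSPA6 and MT2A have the same deposited count in KD3, 3154, and differ in the other 5 libraries. In KD3 the levels were 86 and 77.5 times the control mean, where MT2A was at 102%, SLC30A1 at 97.8%, MTF1 at 127%, MT1F at 138% and MT1X at 241% of it. HSPA6 shared 45.5% of its 50-base windows with other genes. Across the groups neither was called by edgeR (adjusted p = 0.226 for HMOX1 and 0.199 for HSPA6).

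**Figure D3:**
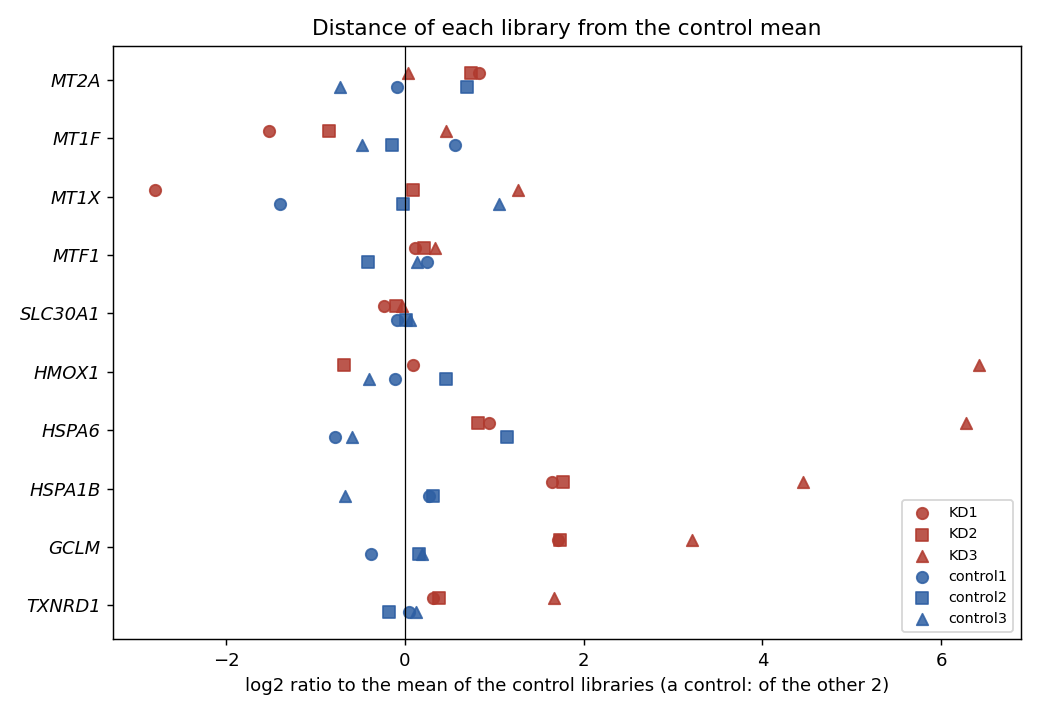
Distance of each library from the control mean on a log2 scale for 5 members and 5 stress genes; a control library is set against the mean of the other 2. Red symbols are libraries labelled HHEX shRNA and blue symbols controls. The red triangle, KD3, is far to the right for HMOX1 and HSPA6 and close to 0 for MT2A and SLC30A1.

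A wider list of genes that heavy metals and electrophiles can induce was high in KD3. Of 16 tested members 14 lay more than 2-fold above the control mean in KD3, 4 in KD2 and 5 in KD1, against the shares of all tested genes given above. The list holds HMOX1 and HSPA6, and its genes overlap those by which KD3 was known to stand apart, so the count describes the library and is not independent of its choice. More than 2-fold below the control mean lay 3 of the 16 in KD1, 3 in KD2 and 0 in KD3, where 9.86%, 9.96% and 4.77% of all tested genes did. In KD1 and KD2 these were ATF3, SLC7A11 and SQSTM1, which in KD3 lay more than 2-fold above the control mean. The list median was 2.0 in KD3, 0.38 in KD2 and 0.52 in KD1 as log2 ratio to the control mean, against −0.02, −0.04 and −0.04 over all tested genes. HSPH1, a chaperone of the HSP110 family, was the 1 gene of the list called higher by edgeR, where 0.105% of all tested genes were. It had 537 (KD1), 539 (KD2) and 596 CPM (KD3) against 208 to 218 CPM in the controls, a log2 fold change of 1.39 with an SE of 0.13 (edgeR adjusted p = 0.0164). Leaving out any library other than KD3 ended that call (edgeR adjusted p = 0.0658 to 0.158), while the log2 fold change was 1.39 to 1.42. Those fits called 0 or 1 of all genes. HSPA1B, an HSP70 gene whose near-identical copy HSPA1A makes its counts uncertain, had 99.7 (KD1), 109 (KD2) and 698 CPM (KD3) against 22.8 to 36.6 CPM in the controls (edgeR adjusted p = 0.12). GCLM, which serves glutathione synthesis, lay at 52.2, 53.1 and 147 CPM against 13.3 to 17.4 CPM (edgeR adjusted p = 0.0817). BAG3, a co-chaperone, lay at 93.3, 84.1 and 141 CPM against 42.2 to 48.9 CPM (edgeR adjusted p = 0.0609). DESeq2 called 6 genes of the list, among them HSPA1B, GCLM and BAG3, where it called 854 of all 14280 tested genes. Without KD3 edgeR called 13 of the list, counted in either direction, where that fit called 4675 of 14791 tested genes.

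**Figure D4:**
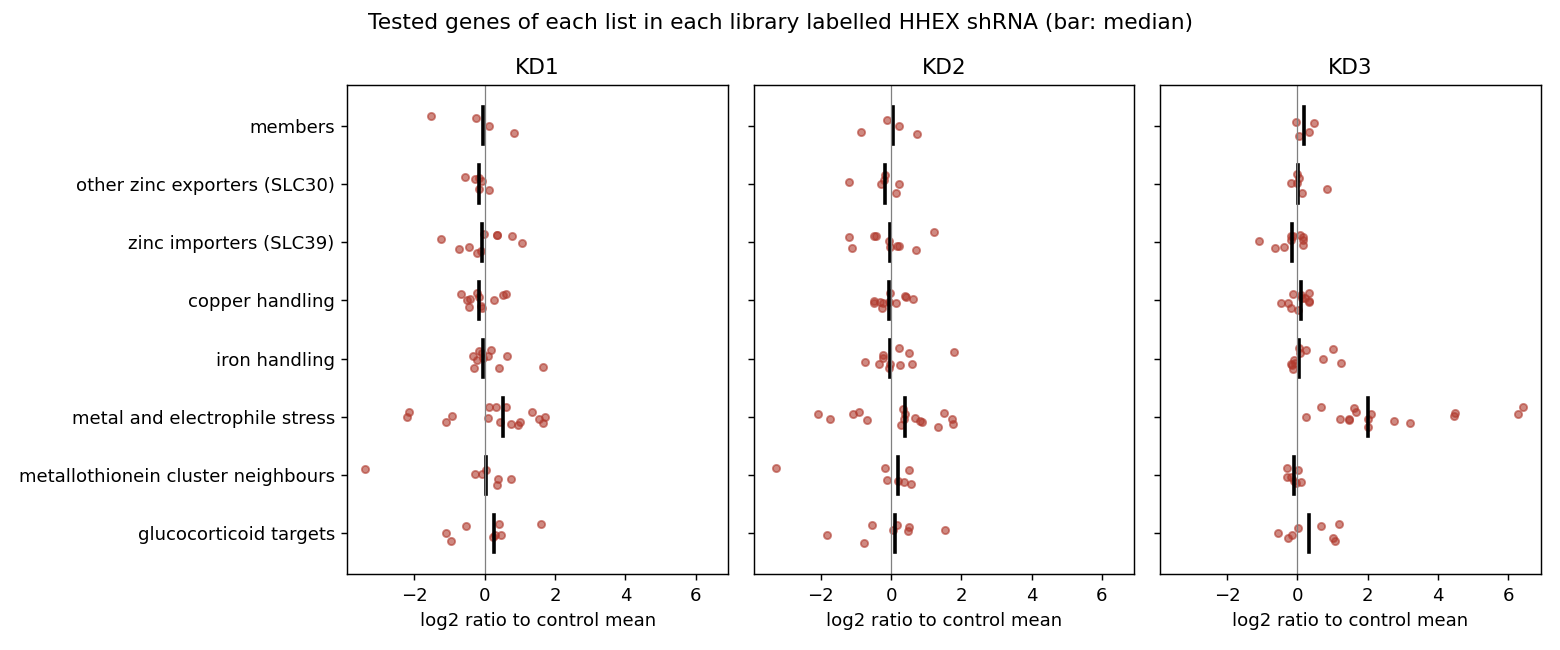
Log2 ratio to the control mean of each tested gene, by gene list, in KD1, KD2 and KD3, with a bar at the list median. In KD3 the metal and electrophile stress list has a median of 2.0, while the members and the lists of zinc exporters, zinc importers, copper and iron handling have medians between −0.15 and 0.19.

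In the rest of zinc transport edgeR called 0 genes, where it called 0.182% of all tested genes. Of 6 tested exporters of the SLC30 family 0 passed and 0 had an unadjusted p under 0.05, with a median log2 fold change of −0.04, and SLC30A9 was nearest at −0.21 (edgeR adjusted p = 0.312). SLC30A5, SLC30A6 and SLC30A4 lay at −0.11, 0.12 and −0.18. Of 10 tested importers of the SLC39 family edgeR called 0, with a median of 0.01, and 4 had an unadjusted p under 0.05, where 20.6% of all tested genes did. DESeq2 called 1 importer, SLC39A10 (adjusted p = 0.0293), where it called 854 of all 14280 tested genes. Without KD3 edgeR called 3 importers, in a fit that called 4675 of 14791 genes. Without the filter on low counts edgeR called 3, in a fit that called 1359 of 28322 genes. SLC39A10, which carries zinc into the cell, had 48.7 (KD1), 54.6 (KD2) and 26.6 CPM (KD3) against 26.3, 22.0 and 22.4 CPM in the controls (log2 fold change 0.88, SE 0.25, edgeR adjusted p = 0.134). SLC39A14, an importer of zinc, iron and manganese, lay at 115, 119 and 239 CPM against 304, 263 and 252 CPM (−0.79, SE 0.28, edgeR adjusted p = 0.177). In both, KD3 lay nearer to the controls than KD1 and KD2 did. Their groups did not overlap, nor did those of other importers, among them SLC39A4 and SLC39A13. Of all tested genes 24.9% had groups that did not overlap. SLC39A4, the importer known from the gut, and SLC39A13, of the secretory pathway, lay at −0.97 and −0.36 (edgeR adjusted p = 0.161 and 0.21), and at −0.54 and −0.24 without control2, where SLC39A4 had 16.5 CPM against 6.95 and 9.70 in the other controls.

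Copper and iron genes were read for comparison. Of 11 tested copper genes edgeR called 0, where it called 0.182% of all tested genes, with a median log2 fold change of −0.08. An unadjusted p under 0.05 was reached by 3, where 20.6% of all tested genes reached it. Leaving out KD3 gave 3 copper calls by edgeR, in a fit that called 4675 of 14791 genes. Nearest with all libraries were SOD1, the superoxide dismutase that holds copper and zinc, at 0.45 on the log2 scale, its copper chaperone CCS at −0.49 and the reductase STEAP3 at −0.37 (edgeR adjusted p = 0.16, 0.175 and 0.186). COX17, which carries copper to cytochrome oxidase, lay at 0.43. Of 11 tested iron genes edgeR called 0, where it called 0.182% of all tested genes, with a median of 0.14. In KD3 2 lay more than 2-fold above the control mean, where 1.86% of all tested genes did. These were FTL and FTH1, the light and heavy chains of ferritin. FTL had 1669 (KD1), 1498 (KD2) and 4134 CPM (KD3) against 1651 to 1928 CPM in the controls, so KD3 was the high library, at 2.35 times the control mean. FTH1 in KD3 had 8.17 CPM, 2.03 times the control mean, with the shared sequence given above. TFRC, the transferrin receptor, had 941 (KD1), 1048 (KD2) and 501 CPM (KD3), against 304, 257 and 341 CPM in the controls, so that the groups did not overlap (log2 fold change 1.46, SE 0.27, edgeR adjusted p = 0.0768). Of all tested genes 24.9% had groups that did not overlap. By DESeq2 TFRC passed with an adjusted p = 1.38e-05, where 854 of all 14280 tested genes passed. PCBP1, an iron chaperone, CYBRD1, a ferric reductase, and IREB2, an iron-sensing regulator, lay at 0.42, −0.23 and 0.32 and did not pass with all libraries. Leaving out KD3 gave 3 iron calls by edgeR, TFRC, PCBP1 and IREB2, in a fit that called 4675 of 14791 genes.

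MT2A also answers to glucocorticoids, and a list of their targets was read beside it. Of 8 tested genes edgeR called 1, where it called 0.182% of all tested genes. DESeq2 called 2, SGK1 and PER1, where it called 854 of all 14280 tested genes. Leaving out KD3 gave 6 calls by edgeR, in a fit that called 4675 of 14791 genes. SGK1, a kinase, had 202 (KD1), 191 (KD2) and 140 CPM (KD3) against 61.9 to 68.2 CPM in the controls, a log2 fold change of 1.43 with an SE of 0.16 (edgeR adjusted p = 0.0192). Its call too was lost when any library other than KD3 was left out (log2 fold change 1.33 to 1.48, edgeR adjusted p = 0.0703 to 0.208). PER1, a clock gene, and TSC22D3, which encodes the glucocorticoid-induced leucine zipper, lay at −0.75 and −0.93 (edgeR adjusted p = 0.119 and 0.193), and PER1 had an adjusted p = 0.0305 by DESeq2. DUSP1, a phosphatase, had 250 (KD1), 239 (KD2) and 484 CPM (KD3) against 197 to 240 CPM in the controls, a log2 fold change of 0.60 that was 0.22 without KD3. The list's median was 0.30.

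Genes around the metallothionein cluster on chromosome 16 gave 0 calls of 7 tested, where edgeR called 0.182% of all tested genes, with a median log2 fold change of 0.12. Leaving out KD3 gave 3 calls, HERPUD1, NUP93 and NUDT21, in a fit that called 4675 of 14791 genes. Of the tested genes of this list BBS2 lies nearest to MT2A on the side of lower coordinates, with NUDT21 beyond it. NUP93 lies on the other side of the cluster. The log2 fold changes of BBS2, NUDT21 and NUP93 were −0.24, 0.31 and 0.44. NUP93, a nuclear pore gene, had 146 (KD1), 131 (KD2) and 81.5 CPM (KD3) against 82.4, 94.0 and 87.3 CPM in the controls. Like MT2A, it stood above all controls in KD1 and KD2 and not in KD3, and so did NUDT21. Of the 7 genes 4 stood above all controls in KD1, 4 in KD2 and 1 in KD3, where 34.1%, 34.4% and 29.9% of all tested genes did. Below all controls stood 3 in KD1, 3 in KD2 and 2 in KD3, where 37%, 37.6% and 31.6% of all tested genes did. HERPUD1, a gene of the endoplasmic reticulum stress response farther along, lay at 43.0, 47.1 and 376 CPM against 467, 548 and 362 CPM (edgeR adjusted p = 0.317), a log2 fold change of −1.56 that was −3.33 without KD3 (edgeR adjusted p = 4.53e-07).

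The genes most like the metallothionein sum were found by Pearson correlation of log2 CPM over the 6 libraries, as a description. They were CBX2, a Polycomb subunit (r = 0.993), CMPK1, a nucleotide kinase (0.991), MRPL50, of the mitochondrial ribosome (0.99), REXO5, an exonuclease (0.986), CHAC2, which degrades glutathione (0.986), and C4orf3 (0.984). Of 10604 genes compared 356, or 3.36%, had r over 0.9. CBX2 had 13 (KD1), 13.6 (KD2) and 8.88 CPM (KD3) against 8.37, 10.8 and 5.99 CPM in the controls, and its groups overlapped as those of MT2A did.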

How the data were processed

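Per the labels' protocols, Trizol RNA went through mRNA capture and TIANSeq library preparation. No aligner, counter, build or strand setting is named in the labels. The table deposited by the authors holds raw counts per gene, and 6 further columns of per-library values were not used. Start and end of 58672 of 58735 named genes equal those of GENCODE 29 (GRCh38). A further 998 rows without a gene name, 0.239% to 0.298% of counts, were left out. Columns were assigned to a group by name, without a replicate label.

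Counts were tested over all named genes with edgeR 4.0.16 in R 4.3.3 (filterByExpr, which left 14280 genes, TMM scaling, robust glmQLFit and glmQLFTest, Benjamini-Hochberg adjustment, threshold 0.05). The labels call the libraries biological replicates, name no separate cultures and give 2 of 3 titles in either group the same first number, so the p-values rest on a spread that may be technical. CPM use TMM factors, levels per kilobase use the length of all exons of a gene in GENCODE 29, intervals are exact 95% Poisson intervals, and the limit of a count of 0 is 3 counts. On simulated counts for this comparison of 14280 genes 68% of genes changed 2-fold and 97% of those changed 4-fold were recovered, with 8 false calls among 14080. The changed genes were drawn from those with a mean over 5 CPM, so these shares do not cover MT1F. No simulated library was set apart from its group, as KD3 is here, so the shares may not hold for the real libraries. Alternatives were RLE, upper-quartile and no scaling, 2 other low-count filters, DESeq2 1.42.0, limma voom (limma 3.58.1), single motif forms and leaving out each library.

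Members and the 8 other gene lists were chosen with earlier results of these data known. Of 102 entries in these lists 101 matched the table. Named genes are the members, HHEX, HMOX1, HSPA6, up to 4 tested genes per list by smallest p with any called gene, every other metallothionein with at least 1 CPM in any library (0 did), and the 6 genes most like the metallothionein sum with a mean of at least 5 CPM. ATF3, FTH1, FTL, HSPA1A, MT1A, MT1H, SLC7A11 and SQSTM1 were named after their values were seen. One marker of the cell type lists is not reported here. Promoter sequences are from RefSeq (GRCh38.p14), matched by symbol for 4 of 8 members. Windows of 50 and 100 bases were compared across all GENCODE 29 transcripts on both strands.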

Additional observations from a re-analysis of the deposited data

How the results depend on the processing

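No paired analysis was possible because the columns carry no replicate number of the labels, only a group. The log2 fold changes of MT2A, MT1F, MTF1 and SLC30A1 kept their sign in each alternative. MT2A passed the threshold without a low-count filter (0.58, edgeR adjusted p = 0.014) and without KD3; for MT2A the values when 1 library was left out ran from 0.37 to 0.86. The count of members called, 0, was 1 without the filter and 0 to 1 with 1 library left out. The count of all genes called, 26, was 1359 without the filter, 854 by DESeq2 and 0 to 4675 with 1 library left out (0 without KD1, KD2, control2 or control3, with 1789, 1625, 1947 and 1806 genes at an unadjusted p under 0.05, and 1 without control1). Genes of the other lists called higher, 2, became 8 without the filter, 9 by DESeq2 and 0 to 21 with 1 library left out, and those called lower, 0, became 4, 1 and 0 to 10. HMOX1 turned to −0.21 without KD3, the lowest of a range up to 5.44 with 1 library left out. The metallothionein sum over the control mean ran from 1.53 to 2.11 for KD1, 1.44 to 1.99 for KD2 and 0.896 to 1.24 for KD3 when 1 control was left out. The cause of these shifts was not tested. RLE scaling, upper-quartile scaling, no scaling, the filter at 1 CPM and limma voom changed no count of calls over all genes by more than 1.5 times. For members with few counts (MT1F, MT1X) depth limits the comparison.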
